A study of Mus musculus with 4 samples.

Results

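The genes described here are 38 members of the hypoxia-inducible factor (HIF) pathway in mouse: the HIF subunits, the oxygen sensors that control them, and hypoxia-responsive target genes outside glycolysis. They were taken from a list of symbols and matched by gene identifier. All 38 of 38 symbols were found, each with 1 identifier, among the 53647 genes of the count tables. RNA was sequenced from 4T1 cells, a wild-type mouse mammary carcinoma line, in 4 libraries. In the uniSTING group (2 libraries) the cells were given an mRNA encoding uniSTING, a designed protein that imitates active STING, an adaptor of innate immunity, and in the Mock group (2 libraries) an mRNA encoding the fluorescent protein EGFP. Both groups were therefore exposed to foreign mRNA and a carrier. The labels name a transfection reagent and SS-OP lipid nanoparticles as carriers without saying which library had which, and they give no dose, time or oxygen tension. Each group is a set of numbered preparations of 1 cell line, called replicates 1 and 2 here.

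In cells with enough oxygen, prolyl hydroxylases of the EGLN family mark the HIF alpha subunits HIF-1α (Hif1a) and HIF-2α (Epas1), and the VHL ubiquitin ligase complex then sends them for degradation. The asparaginyl hydroxylase FIH (Hif1an) separately blocks their contact with coactivators. When oxygen is low, alpha subunits accumulate, pair with ARNT and bind hypoxia response elements whose core reads ACGTG or GCGTG. HIF-1α is controlled mostly at the level of the protein, which RNA sequencing does not measure, so that its activity is usually read from target transcripts. Tumour cells use such targets for blood vessel growth, collagen modification, acid export and the removal of mitochondria.

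Of the 38 members, 37 had enough reads to be tested, and 23 rose and 4 fell in uniSTING cells, while 10 did not pass. The test was edgeR's quasi-likelihood test on counts, its p-values adjusted by the Benjamini-Hochberg method across 12972 genes, with a threshold of 0.05. The background was high: 50.2% of all tested genes passed in either direction, 24.9% higher and 25.4% lower in uniSTING. Among members, 62.2% rose and 10.8% fell. The counts by role given below are also to be read against the shares of all tested genes. At 1.5-fold or more, 12 members rose (32.4% of the 37, against 5.19% of all tested genes), and at 2-fold or more 7 members rose (18.9%, against 2% of all tested genes). No member fell by 1.5-fold, against 4.52% of all tested genes. Both uniSTING libraries lay above both Mock libraries in 37.8% of all tested genes and below both in 37.3%. Statements below that the groups of a gene did not overlap are to be read against these shares. The median log2 fold change was 0.24 over the 37 members, 0.41 over the 29 tested targets and 0.05 over the 8 subunit, sensor and Vhl genes, beside 0.006 over all tested genes. In bulk RNA, fewer cells of a type and less RNA per cell cannot be told apart.

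**Figure D1:**
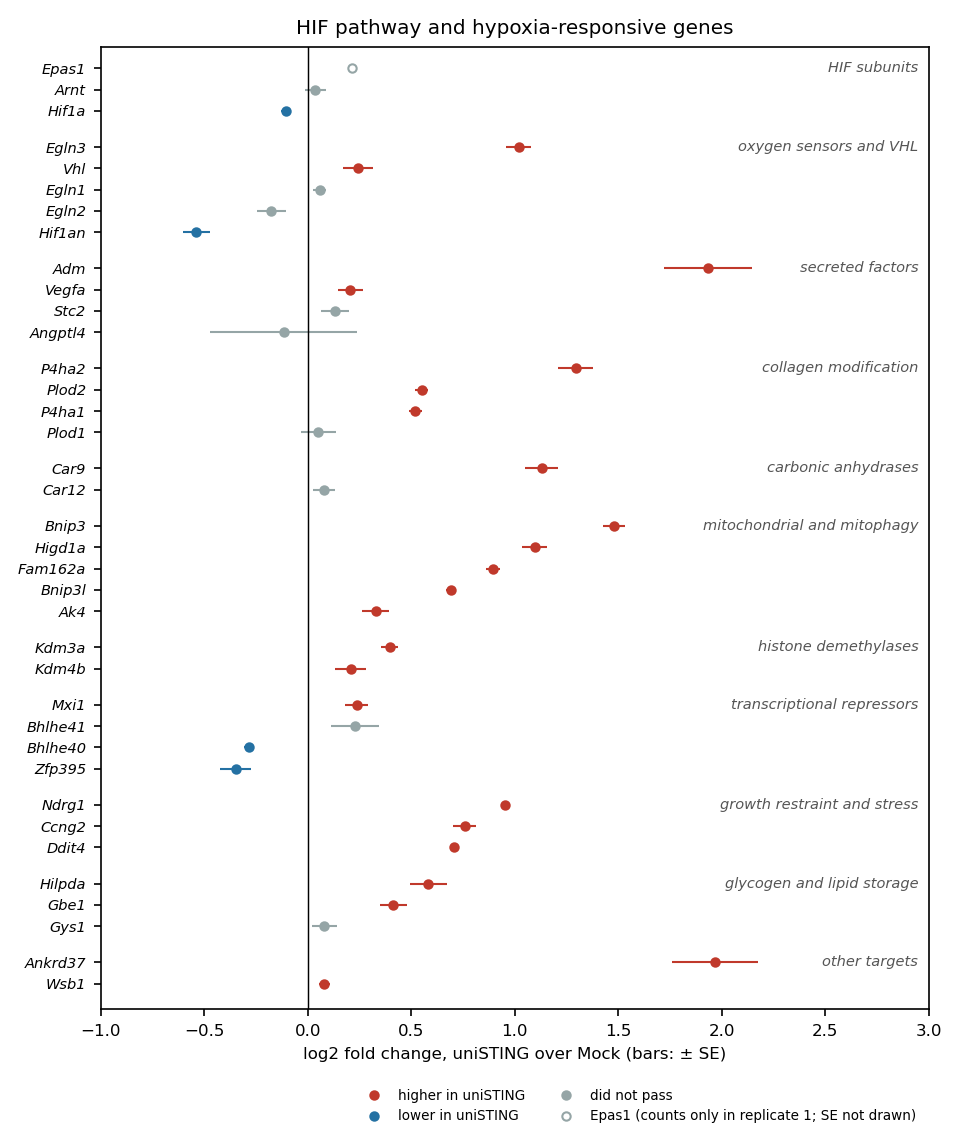
Log2 fold change of uniSTING over Mock (x axis) for the 37 tested members, grouped by role, with bars for the standard error and colours for the call. The target genes lie mostly to the right of 0, with Ankrd37 at 1.97 and Adm at 1.93, while the subunits, Egln1 and Egln2 lie between -0.18 and 0.21, and Hif1an is lowest at -0.54.

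The promoters shown next belong to the 4 members with the largest change among those with a HIF core motif, Ankrd37, Adm, Bnip3 and P4ha2, all higher in uniSTING. Each line gives the 250 bases before the annotated start, 5′ to 3′ on the gene's strand (RefSeq, GRCm38.p6), with every ACGTG or GCGTG on either strand in capitals, so that CACGT and CACGC are cores of the opposite strand. The windows lie at chr8:45999851-46000100 on the minus strand (Ankrd37), chr7:110627407-110627656 on the plus strand (Adm), chr7:138909507-138909756 on the minus strand (Bnip3) and chr11:54100674-54100923 on the plus strand (P4ha2).
Ankrd37: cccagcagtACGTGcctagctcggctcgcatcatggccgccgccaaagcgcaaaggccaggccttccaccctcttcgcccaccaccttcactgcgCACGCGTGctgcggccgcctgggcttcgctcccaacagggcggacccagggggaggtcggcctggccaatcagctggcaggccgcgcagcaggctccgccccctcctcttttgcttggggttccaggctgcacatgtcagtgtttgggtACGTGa
Adm: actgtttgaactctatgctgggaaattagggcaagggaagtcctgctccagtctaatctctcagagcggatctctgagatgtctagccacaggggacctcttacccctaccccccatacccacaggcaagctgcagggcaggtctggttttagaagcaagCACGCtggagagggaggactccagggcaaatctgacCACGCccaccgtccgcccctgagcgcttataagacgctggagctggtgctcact
Bnip3: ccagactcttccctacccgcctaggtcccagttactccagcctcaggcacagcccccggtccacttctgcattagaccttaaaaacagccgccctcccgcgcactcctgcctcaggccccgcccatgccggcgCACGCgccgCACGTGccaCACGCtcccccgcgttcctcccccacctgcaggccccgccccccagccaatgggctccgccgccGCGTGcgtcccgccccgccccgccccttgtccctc
P4ha2: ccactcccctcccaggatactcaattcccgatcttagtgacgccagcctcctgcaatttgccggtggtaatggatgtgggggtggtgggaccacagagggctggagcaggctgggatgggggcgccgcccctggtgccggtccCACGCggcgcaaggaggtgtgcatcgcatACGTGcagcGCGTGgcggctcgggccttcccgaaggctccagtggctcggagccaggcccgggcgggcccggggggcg

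Ankrd37 held 4 cores, the nearest beginning 6 bases before the start, Adm 2, Bnip3 5 and P4ha2 3 in the stretch printed, with 1 more after its start. In Bnip3, 2 of the 5 are the overlapping strands of the palindrome CACGTG, which is also an E-box. In Ankrd37, the cores beginning 155 and 152 bases before the start likewise overlap, in the palindrome CACGCGTG. Promoter windows of 300 bases (250 before and 50 after the start) were at hand for 29 of the 38 members. A core on either strand was present in 24 of these 29 (82.8%), in 17 of the 19 that rose (89.5%), in 6 of the 8 that did not pass, in 1 of the 2 that fell, and in 6385 of 9255 tested genes with a window (69.0%). The short core is thus common among expressed genes, and its presence is a description of these letters, not of binding. The palindrome CACGTG was present in 6 of the 29 members and in 1110 of the 9255 tested genes. A gene with several windows was counted where any of them held the motif.

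Of the HIF subunit transcripts, Hif1a and Arnt differed little between the groups, and Epas1 could not be assessed. Hif1a (ENSMUSG00000021109, chromosome 12, 73948149 to 73994304, GRCm39) was at 181 and 179 CPM (counts scaled to a common library size) in the uniSTING libraries and at 197 and 191 CPM in the Mock libraries. The groups did not overlap, with uniSTING lower by 0.11 on the log2 scale (SE 0.03, adjusted p = 0.00616), 1.08-fold. Fold changes over all genes followed exon length in this comparison (Spearman rho -0.49 across 7992 well-expressed genes, which are not independent replicates). The call on Hif1a was lost once this trend was removed (log2 fold change -0.04, adjusted p = 0.204). It passed again at -0.16 with trends in both length and GC content removed (adjusted p = 3.77e-04). Arnt, the shared partner, was at 60.3 and 65.0 CPM in uniSTING and at 60.3 and 62.0 CPM in Mock. Its groups overlapped and it did not pass (log2 fold change 0.04, SE 0.05), though it did once the length trend was removed (0.17, adjusted p = 0.0204). Epas1 had 36 and 0 counts in uniSTING replicates 1 and 2 and 29 and 0 counts in Mock replicates 1 and 2. Its reads therefore came from the replicate 1 library of each group and from neither replicate 2 library, where a count of 0 allows up to 0.120 CPM in uniSTING and 0.136 CPM in Mock, and no difference between the groups was detectable (ratio of summed counts 1.13, 95% binomial interval 0.674 to 1.91, counting error only). Epas1 was 1 of 54 genes seen only in the replicate 1 libraries, defined by 20 or more counts in either replicate 1 library and summed replicate 2 counts of at most 5% of those of replicate 1. By the same rule, 0 genes were seen only in replicate 2. TPM are counts per exon length, scaled to the total of each library without TMM. Beyond exon length, a factor common to all genes thus separates them from CPM in each library. They serve here to compare genes, and groups are compared in CPM. Per length, Hif1a was the most abundant subunit, at 86.4 ± 0.722 TPM in uniSTING and 101 ± 2.44 TPM in Mock (SD, n = 2 libraries per group). Arnt was at 22.1 ± 1.16 TPM in uniSTING and 23.5 ± 0.410 TPM in Mock.

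**Figure D2:**
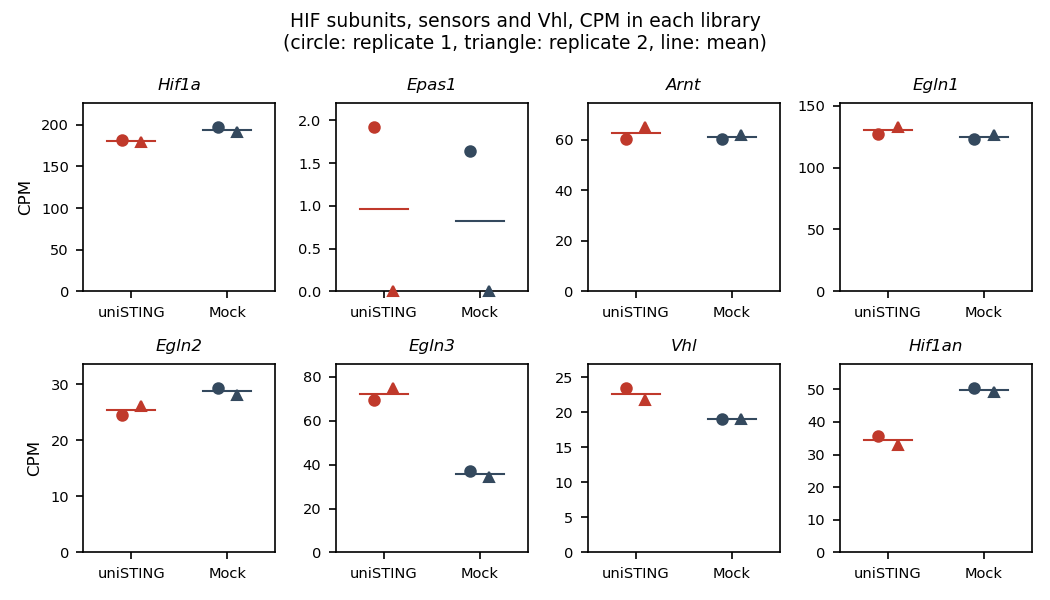
CPM (y axis, from 0) of the 3 HIF subunits, the 3 EGLN genes, Vhl and Hif1an in each library, uniSTING left of Mock. Egln3 is about 2.03-fold higher and Hif1an 1.45-fold lower in uniSTING, and Epas1 has reads only in the replicate 1 libraries.

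The oxygen sensors split. Egln3, which encodes the prolyl hydroxylase PHD3 and is itself a known HIF target, was at 69.2 and 74.8 CPM in uniSTING and at 37.1 and 34.3 CPM in Mock. Both uniSTING libraries stood well above both Mock libraries, and Egln3 rose 2.03-fold (by 1.02 on the log2 scale, SE 0.06, adjusted p = 2.26e-07). Egln1, which encodes PHD2, the main sensor in most cells, was at 127 and 133 CPM in uniSTING and at 123 and 127 CPM in Mock and did not pass (log2 fold change 0.06, SE 0.03, adjusted p = 0.145). Egln2, which encodes PHD1, was at 24.6 and 26.2 CPM in uniSTING and at 29.3 and 28.2 CPM in Mock, with both uniSTING libraries lower, and just missed the threshold (log2 fold change -0.18, SE 0.07, adjusted p = 0.0569). It passed with the length trend removed (-0.26, adjusted p = 0.0132) or without uniSTING replicate 2 (-0.23, adjusted p = 0.0491), but was at -0.07 once length and GC trends were removed. Among the 3 sensors Egln1 was the most abundant per length in both groups, at 102 ± 2.89 TPM in uniSTING and 107 ± 1.84 TPM in Mock. Egln3 followed at 76.4 ± 4.23 TPM in uniSTING and 41.3 ± 2.44 TPM in Mock, above Egln2 at 25.6 ± 1.11 TPM in uniSTING and 31.6 ± 0.969 TPM in Mock.

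Hif1an moved the other way. The gene for FIH (chromosome 19, 44551289 to 44564713) was at 35.6 and 33.1 CPM in uniSTING and at 50.4 and 49.2 CPM in Mock. Both uniSTING libraries were lower, and it fell by 0.54 on the log2 scale (SE 0.06, adjusted p = 4.18e-05), 1.45-fold, the largest fall among the members tested. Vhl was at 23.4 and 21.8 CPM in uniSTING and at 19.1 and 19.1 CPM in Mock. It rose 1.18-fold (log2 fold change 0.24, adjusted p = 0.0177), a call that DESeq2 did not make (adjusted p = 0.111) and that was lost with the length trend removed (adjusted p = 0.0711) and without uniSTING replicate 1 or either Mock replicate (adjusted p = 0.160, 0.0712 and 0.0652).

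**Figure D3:**
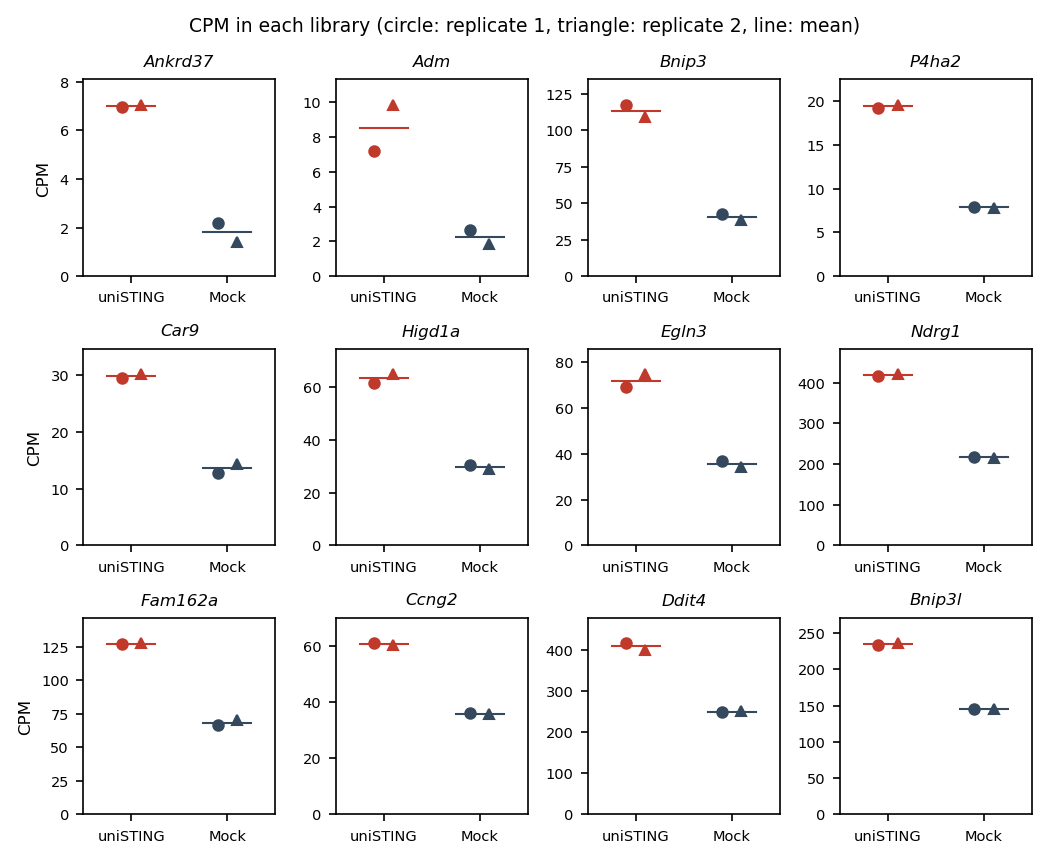
CPM (y axis, from 0) in each library of the 12 members that rose at least 1.5-fold, in order of fold change, uniSTING left of Mock. In all 12 panels both uniSTING libraries lie above both Mock libraries, and relative to their level the replicates are farthest apart for Ankrd37 in Mock, at 2.21 and 1.40 CPM.

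All 5 genes of mitochondrial proteins and mitophagy rose, beside 24.9% of all tested genes, with a median log2 fold change of 0.89. Bnip3, a mitophagy receptor of the outer mitochondrial membrane (ENSMUSG00000078566, chromosome 7, 138492565 to 138511248), was at 117 and 109 CPM in uniSTING and at 42.6 and 38.5 CPM in Mock. The groups were far apart relative to their spread, and Bnip3 rose 2.79-fold (log2 fold change 1.48, SE 0.05, adjusted p = 4.51e-09), above 99.0% of all tested genes. By counted reads, its relative Bnip3l (NIX) was the more abundant per length (172 ± 1.17 TPM in uniSTING and 116 ± 0.0921 TPM in Mock, against 141 ± 7.26 TPM in uniSTING and 55.2 ± 4.08 TPM in Mock for Bnip3). It was at 234 and 236 CPM in uniSTING and 145 and 146 CPM in Mock, and rose 1.61-fold (log2 fold change 0.69, SE 0.02, adjusted p = 3.99e-09). Higd1a, a mitochondrial inner membrane protein that promotes survival in hypoxia, was at 61.5 and 64.7 CPM in uniSTING and at 30.2 and 28.9 CPM in Mock, a rise of 2.14-fold (log2 fold change 1.10, SE 0.06). Fam162a, a HIF-1-responsive mitochondrial protein, was at 127 and 128 CPM in uniSTING and at 66.5 and 70.1 CPM in Mock, and rose 1.86-fold (log2 fold change 0.89, SE 0.03). In both of these genes the uniSTING libraries lay above the Mock libraries, as they did in 37.8% of all tested genes. Ak4, an adenylate kinase of the mitochondrial matrix, was at 47.2 and 49.4 CPM in uniSTING and at 36.7 and 40.1 CPM in Mock. It rose less, 1.26-fold (adjusted p = 0.00166).

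Several of these genes have near-identical copies or overlapping neighbours, where uniquely mapped reads counted without strand can be split between genes or left unassigned. The processed pseudogene Bnip3l-ps matches 663 bases of Bnip3l at 99.25% identity and had 1075 and 1586 counts in uniSTING and 652 and 830 counts in Mock, beside 4381 and 5875 counts of Bnip3l in uniSTING and 2560 and 3225 in Mock. Counts of the gene and of the copy were higher in both uniSTING libraries than in either Mock library. A noncoding transcript that matches 858 bases of Bnip3 (48.9% of its longest transcript) at 98.25% identity had 29 and 37 counts in uniSTING and 18 and 9 in Mock. The pseudogenes Gm9419, Gm16439 and Gm6532 match 567, 564 and 559 bases of Bnip3 and had 0, 0 and 15 counts over all libraries. Ak3l2-ps, a copy of Ak4, had 67 counts over all libraries. Wdr5b, on the opposite strand to Fam162a, shares 19.8% of its exon bases and had 254 counts over all libraries. Antisense transcripts over Bnip3 and Higd1a had 0 counts, and short models within Plod2 and Bhlhe41 had 92 and 17 counts over all libraries. Ruvbl2, with 15879 counts, shares 6.47% of the exon bases of Gys1. The levels of Bnip3, Bnip3l, Ak4 and Gys1 are therefore uncertain, and so is the order of Bnip3 and Bnip3l per length. The copies of Bnip3 and Ak4 had few counted reads, but reads that match a gene and its copy equally well were not counted for either. Reads over exon bases shared with a neighbour may likewise be missing from both genes.

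Genes that restrain growth or answer stress rose in 3 of 3 cases, beside 24.9% of all tested genes, with a median log2 fold change of 0.76. Ndrg1, a stress-responsive gene long used as a hypoxia marker, was at 416 and 421 CPM in uniSTING and at 218 and 215 CPM in Mock. It had the smallest p among the members (log2 fold change 0.95, SE 0.02, adjusted p = 1.94e-10). Ddit4 (REDD1), an inhibitor of mTORC1, was the most abundant of all members per length, at 670 and 645 TPM in uniSTING and 437 and 439 TPM in Mock. In CPM its uniSTING libraries stood at 416 and 401 and its Mock libraries at 249 and 251, and it rose 1.63-fold (log2 fold change 0.71, SE 0.02, adjusted p = 3.20e-09). Ccng2, an unconventional cyclin linked to cell cycle arrest, was at 61.1 and 60.6 CPM in uniSTING and at 36.3 and 35.7 CPM in Mock, a rise of 1.69-fold (log2 fold change 0.76, SE 0.05). In all 3 genes both uniSTING libraries lay above both Mock libraries, as they did in 37.8% of all tested genes.

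Enzymes that modify collagen rose in 3 of 4 tested cases, beside 24.9% of all tested genes, with a median log2 fold change of 0.54. P4ha2, an alpha subunit of prolyl 4-hydroxylase (ENSMUSG00000018906, chromosome 11, 53990921 to 54022491), was at 19.2 and 19.5 CPM in uniSTING and at 7.94 and 7.83 CPM in Mock, and rose 2.45-fold (log2 fold change 1.30, SE 0.08, adjusted p = 4.00e-07). P4ha1, the more abundant alpha subunit (89.7 ± 0.545 TPM in uniSTING and 68.2 ± 1.07 TPM in Mock, against 8.70 and 8.82 TPM in uniSTING and 3.93 and 3.86 TPM in Mock for P4ha2), was at 131 and 130.1 CPM in uniSTING and at 89.9 and 92.2 CPM in Mock. It rose 1.43-fold (log2 fold change 0.52, SE 0.03). In both genes the uniSTING libraries lay above the Mock libraries, as they did in 37.8% of all tested genes. Of the lysyl hydroxylase genes, Plod2 was at 114 and 114 CPM in uniSTING and at 79.2 and 76.9 CPM in Mock, and rose 1.47-fold (log2 fold change 0.55, SE 0.03). Plod1 was at 17.3 and 15.7 CPM in uniSTING and at 16.6 and 15.2 CPM in Mock, with overlapping groups, and did not pass (log2 fold change 0.05, SE 0.09). Lox, a lysyl oxidase that crosslinks collagen, had 10 and 0 counts in uniSTING and 1 and 0 counts in Mock, and was too low to be tested. As for Epas1, its reads were all in the replicate 1 libraries.

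The membrane carbonic anhydrases, which help tumour cells export acid, differed from each other. Car9, among the most specific HIF-1 targets, was at 29.4 and 30.1 CPM in uniSTING and at 12.7 and 14.4 CPM in Mock, and rose 2.19-fold (log2 fold change 1.13, SE 0.08, adjusted p = 7.10e-07), with its groups well apart. Car12 was at 61.9 and 61.7 CPM in uniSTING and at 55.7 and 61.0 CPM in Mock. All its values lay close together, and it did not pass (log2 fold change 0.08, SE 0.05, adjusted p = 0.243), but it did with the length trend removed (0.20, adjusted p = 0.0114).

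Of 4 secreted factors, 2 rose, beside 24.9% of all tested genes. Adm, which encodes the vasodilator peptide adrenomedullin (ENSMUSG00000030790, chromosome 7, 110226868 to 110229027), was at 7.21 and 9.80 CPM in uniSTING and at 2.67 and 1.86 CPM in Mock. The replicates spread widely at this depth (135 and 244 counts in uniSTING, 47 and 41 in Mock), yet the groups did not overlap, and Adm rose 3.82-fold (log2 fold change 1.93, SE 0.21, adjusted p = 2.14e-05). Vegfa, the main angiogenic growth factor, was at 50.9 and 46.9 CPM in uniSTING and at 42.4 and 42.3 CPM in Mock. Its rise was small (0.21 on the log2 scale, SE 0.06, adjusted p = 0.0174). The call was lost without uniSTING replicate 1 or either Mock replicate (adjusted p = 0.0571, 0.0630 and 0.0597). Stc2, a secreted glycoprotein, was at 27.5 and 28.6 CPM in uniSTING and at 25.6 and 25.6 CPM in Mock and did not pass (log2 fold change 0.13, SE 0.07). Angptl4, a lipoprotein lipase inhibitor, was near 1 CPM in every library, with 22 and 24 counts in uniSTING and 19 and 27 in Mock. Its groups overlapped, and a ratio of summed counts of 0.911 came with a 95% interval of 0.592 to 1.40.

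Ankrd37, a small ankyrin repeat protein gene and known HIF-1 target (ENSMUSG00000050914, chromosome 8, 46449939 to 46458744), had the largest fold change of all members. It was at 6.94 and 7.03 CPM in uniSTING and at 2.21 and 1.40 CPM in Mock, from 130 and 175 counts in uniSTING and 39 and 31 in Mock. The groups were clearly apart, and it rose 3.92-fold (log2 fold change 1.97, SE 0.21, adjusted p = 1.70e-05). Lrp2bp, on the opposite strand, shares 22.7% of the exon bases of Ankrd37 and had 13 counts over all libraries. Wsb1, a substrate receptor of a ubiquitin ligase, was at 177 and 175 CPM in uniSTING and at 169 and 164 CPM in Mock. It passed by a small margin (log2 fold change 0.08, SE 0.03, adjusted p = 0.0286). DESeq2 did not call it (adjusted p = 0.169), and it was lost with the length trend removed (adjusted p = 0.0625) and without uniSTING replicate 1, uniSTING replicate 2 or Mock replicate 2 (adjusted p = 0.0787, 0.0580 and 0.207). Its direction turned with length and GC trends removed (-0.0093).

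The 2 histone demethylase genes rose modestly. Kdm3a, which removes methyl groups from histone H3 lysine 9, was at 99.5 and 93.6 CPM in uniSTING and at 74.6 and 72.0 CPM in Mock (log2 fold change 0.39, SE 0.04, adjusted p = 1.14e-05). Kdm4b was at 31.3 and 35.0 CPM in uniSTING and at 28.1 and 29.4 CPM in Mock. Its groups did not overlap, but its call (log2 fold change 0.21, SE 0.08, adjusted p = 0.0404) was not made by DESeq2 (adjusted p = 0.109), nor when uniSTING replicate 2 was left out (log2 fold change 0.12, adjusted p = 0.312), nor without Mock replicate 1 (adjusted p = 0.208), and its value was 0.36 with length and GC trends removed. Of 3 genes for glycogen and lipid storage, Hilpda and Gbe1 rose. Hilpda, which inhibits lipolysis at lipid droplets, was at 16.9 and 15.7 CPM in uniSTING and at 10.3 and 11.3 CPM in Mock (log2 fold change 0.58, SE 0.09, adjusted p = 2.90e-04). With the length trend removed its value was 0.35 and still passed (adjusted p = 0.00911). Gbe1, the glycogen branching enzyme, was at 36.4 and 35.6 CPM in uniSTING and at 26.7 and 27.3 CPM in Mock (log2 fold change 0.41, SE 0.07). Gys1, glycogen synthase, was at 42.9 and 42.1 CPM in uniSTING and at 40.5 and 40.0 CPM in Mock and did not pass (log2 fold change 0.08, SE 0.06).

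Of 4 transcriptional repressors, 1 was higher and 2 were lower, beside 24.9% higher and 25.4% lower of all tested genes. Bhlhe40 (DEC1), a repressor that hypoxia induces in many cells, was at 204 and 206 CPM in uniSTING and at 249 and 251 CPM in Mock. Both uniSTING libraries were lower, and it fell by 0.29 on the log2 scale (SE 0.02, adjusted p = 1.83e-06), 1.22-fold. Zfp395, a zinc finger transcription factor, was at 26.6 and 29.5 CPM in uniSTING and at 37.1 and 34.6 CPM in Mock, and fell by 0.35 (SE 0.08, adjusted p = 0.00274). Mxi1, an antagonist of MYC, was at 51.3 and 51.5 CPM in uniSTING and at 43.3 and 43.9 CPM in Mock, and rose 1.18-fold (log2 fold change 0.24, SE 0.05, adjusted p = 0.00408). Bhlhe41 (DEC2) was at 8.97 and 8.32 CPM in uniSTING and at 7.21 and 7.51 CPM in Mock, and did not pass (log2 fold change 0.23, SE 0.11, adjusted p = 0.124). It passed with the length trend removed (0.32, adjusted p = 0.0430).

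**Figure D4:**
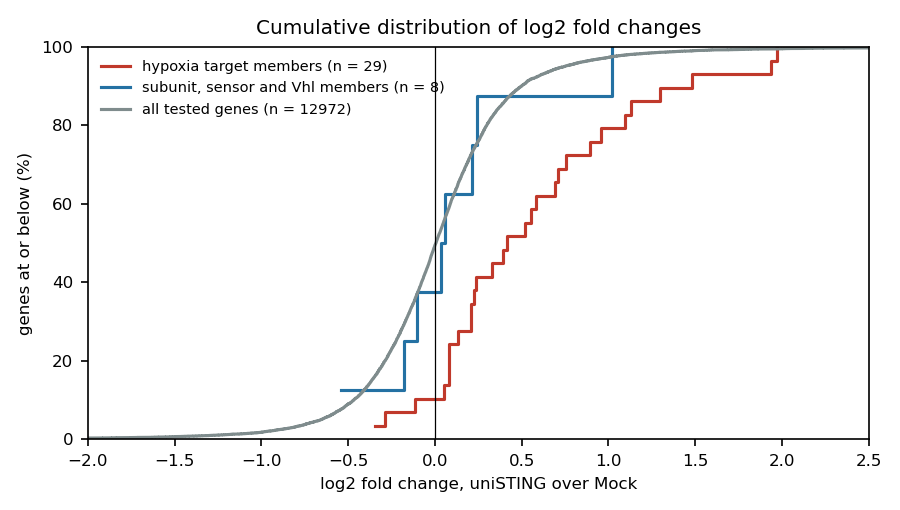
Cumulative share of genes (y axis, percent) at or below a log2 fold change of uniSTING over Mock (x axis) for 29 tested target members, 8 subunit, sensor and Vhl members, and 12972 tested genes, with the most extreme genes beyond the axis. The target curve is shifted to the right, with a median of 0.41, while the subunit and sensor curve has a median of 0.05 and that of all tested genes is 0.006.

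In 28 of the 37 tested members both uniSTING libraries lay above both Mock libraries in CPM (37.8% of all tested genes did), and in 5 both lay below (37.3% of all tested genes did). Fold changes were also taken within each replicate number. Their median was 0.31 between the replicate 1 libraries and 0.25 between those of replicate 2. P4ha2 was at 1.26 and 1.31 on the log2 scale in replicates 1 and 2, Ndrg1 at 0.93 and 0.97 and Higd1a at 1.02 and 1.16. The low-count genes varied more, with 1.40 and 2.34 for Adm and 1.61 and 2.25 for Ankrd37.

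With the trend with exon length removed, 24 members were higher and 4 lower, with a median of 0.33, beside 3039 higher and 2881 lower of all 12972 tested genes. The called members were not all the same, since Hif1a, Vhl and Wsb1 no longer passed while Arnt, Egln2, Car12 and Bhlhe41 did. Ankrd37 moved to 1.77, Adm to 1.747, Bnip3 to 1.36 and Fam162a, which has 850 exon bases, to 0.64, and all of them still passed. P4ha2, with 6239 exon bases, was at 1.37, and Ndrg1, with 6596, at 1.04.

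**Figure D5:**
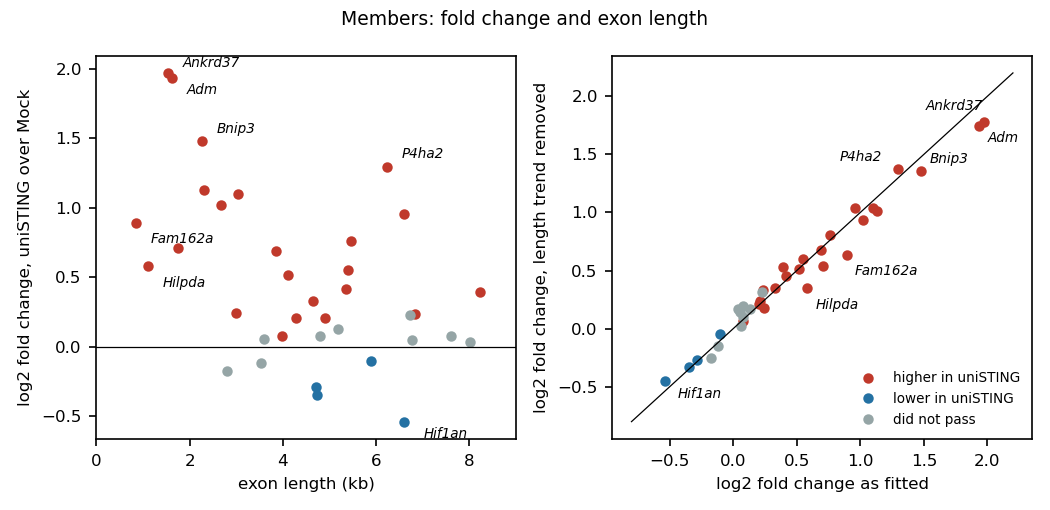
Left, log2 fold change of uniSTING over Mock (y axis) against exon length in kilobases (x axis) for 36 tested members without Epas1. Right, the same fold changes as fitted (x axis) and after the length trend was removed (y axis), with the line of equality. Ankrd37, Adm, Bnip3 and P4ha2 stay highest in both fits, at 1.77, 1.747, 1.36 and 1.37 with the trend removed, and Hif1an stays lowest at -0.45.

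Other genes that regulate HIF were taken from a list of 20. There were 18 tested genes, of which 6 rose, 6 fell and 6 missed the threshold, with a median log2 fold change of 0.05. That share in each direction is not far above the 24.9% of all tested genes that rose and the 25.4% that fell, against which the counts of the next lists are also to be read. The coactivator genes Crebbp and Ep300 fell. Crebbp was at 24.3 and 24.1 CPM in uniSTING and at 43.2 and 42.1 CPM in Mock (log2 fold change -0.82, SE 0.06, adjusted p = 1.90e-06), and Ep300 at 39.8 and 40.1 CPM in uniSTING and at 64.6 and 61.5 CPM in Mock (log2 fold change -0.66, SE 0.05). Both have many exon bases (13540 and 14273), and with the length trend removed they were at -0.54 and -0.37 and still passed. Mtor fell by 0.50, or by 0.31 with the length trend removed. Eloc, a subunit of the VHL ligase complex, rose by 0.39, or by 0.16 with length and GC trends removed. Of 28 other reported hypoxia targets, 22 had enough reads, and 9 of these rose while 9 fell, with a median of -0.09. Tfrc, the transferrin receptor, and Ero1a, an oxidase of the endoplasmic reticulum, rose by 0.593 and 0.589 on the log2 scale. The growth factor gene Pdgfb was at 87.1 and 85.2 CPM in uniSTING and at 149.7 and 154 CPM in Mock, and fell by 0.82 (SE 0.03, adjusted p = 5.55e-09). Glycolytic HIF targets rose in 13 of 16 tested cases and fell in 1 (Hk2), with a median of 0.49. Among them Aldoa was at 1853 and 1848 CPM in uniSTING and at 1280.4 and 1299 CPM in Mock, and Tpi1 rose 1.41-fold.

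Library totals ran from 17502694 to 25071840 counts. Markers of other cell types were scarce. The 5 leukocyte markers summed to 10.4 to 11.7 CPM in uniSTING and 6.43 to 8.91 CPM in Mock, nearly all from Cd68, a lysosomal gene that rose (adjusted p = 0.00650). Itgam had 0 counts in all libraries, but another gene on its strand shares 68.7% of its exon bases, where reads would have been left unassigned, Cd3e had 2 counts in Mock replicate 1 only, and Ptprc had 19 and 0 counts in uniSTING and 8 and 0 in Mock. The 3 endothelial markers summed to 0.321 to 1.07 CPM in uniSTING and 0.226 to 1.70 CPM in Mock, and the 3 fibroblast markers to 9.60 to 10.995 CPM in uniSTING and 7.92 to 9.42 CPM in Mock, most of it from Pdgfra, which rose (log2 fold change 0.37, adjusted p = 0.0243). The epithelial markers Krt8, Krt18, Epcam, Cdh1 and Cldn7 summed to 3515 to 3536 CPM in uniSTING and 3487 to 3514 CPM in Mock and were all detected. Krt8 rose by 0.05, Epcam by 0.15 and Cldn7 by 0.16 on the log2 scale, Cdh1 fell by 0.20 (adjusted p = 0.0124, 1.23e-04, 0.00117 and 2.79e-06), and Krt18 did not pass. What these markers contribute to the members' values was not tested.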

How the data were processed

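RNA of 4T1 cells was sequenced in 4 libraries. The authors deposited raw counts for each gene, made with featureCounts 2.0.1 over exons, in paired-end mode, without a strand option and on uniquely mapped reads (Ensembl 103 annotation, GRCm39), per the file headers. HISAT2 is named in the submitters' processing notes, with its version not given in the sources used here. Alignment names in the headers give both libraries of a group 1 common prefix. The variance between the 2 libraries of a group was 1.41 to 1.79 times that of counting alone, and they were kept as 2 libraries. Nothing says that they came from separate cultures, so that p-values reflect the spread between 2 libraries a group, possibly a technical one.

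Symbols came from an identifier table that matched 52093 identifiers. Counts were tested with edgeR 4.0.16 (R 4.3.3): TMM normalization, the default filter (minimum count 10, minimum total 15), glmQLFit, glmQLFTest and Benjamini-Hochberg adjustment over 12972 genes. CPM are counts per TMM-scaled library size, and TPM use the tables' exon lengths to compare genes. Standard errors derive from the F statistic. Intervals and limits from a count of 0 (3 counts) cover counting error only. Fold changes of 1 replicate number use a prior count of 2. Alternatives were DESeq2 1.42.0, limma-voom (limma 3.58.1), size factors, other filters, the replicate block, leaving out each library and lowess removal (span 0.3) of length trends; removal of length and GC trends and of 54 genes seen only in replicate 1 was added after seeing the data. The tests were checked on simulated data, where 6 of 154 calls were false. The fit recovered 50% of changes of 1.25-fold, 74% of 1.5-fold, 82% of 2-fold and 90% of 4-fold, so that small changes can be missed. Only 50 genes were changed at each fold and no length trend was put in, while 50.2% of tested genes passed in the data. The rates of the simulation therefore need not hold for these libraries. Members, lists and alternatives were chosen with earlier results of these data known. The rule asked for values by library of the subunit and sensor genes and of called members with an absolute log2 fold change of at least 0.4, and they are given for all 38 members; up to 4 genes with the smallest p are named from each other list, and Hk2 and marker genes were named after their values were seen. Some genes of these lists are not reported here by name.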

Additional observations from a re-analysis of the deposited data

How the results depend on the processing

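Of the 37 tested members, 24 kept their direction and their side of the threshold in all 13 other fits, and the counts of members, of the other lists and of all genes stayed within 1.5 times in each of them. The members' median log2 fold change was 0.24, and 0.33 with the length trend removed, 0.35 with length and GC trends removed, 0.28 without the genes seen only in replicate 1 (which leaves out Epas1), 0.31 in the replicate 1 libraries alone and 0.26 to 0.29 when 1 library was left out. Directions turned for genes close to 0. With 1 library left out, Arnt ran from -0.026 to 0.0895, Plod1 from -0.016 to 0.12 and Angptl4 from -0.25 to 0.0211. Wsb1 was at -0.0093 with length and GC trends removed. Epas1 was at -0.057 with limma-voom and ran from -7.08 to 7.33 with 1 library left out, fitted values that rest on libraries at 0 and are no bounds. The cause of these shifts was not tested. With the replicate number as a block, 23 members were higher and 4 lower, and 3374 and 3403 genes in all. The numbers are not known to pair the libraries; deviations of same-numbered libraries had a correlation of 0.63 across genes, as a hint from the data, not the design. With 1 library left out, the lone library of a group was assumed to vary like the others, which limits the calls of those fits. Low counts limit Angptl4, and Epas1 and Lox had reads in the replicate 1 libraries alone, which are the shallower ones of each group.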
